A study of Mus musculus with 8 samples.

Results

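Genes for the uptake and binding of fatty acids were examined in the perivascular fat that surrounds the thoracic aorta, taken from mice of the RictoraP2KO genotype and from controls. The set holds 10 genes chosen by function: Lpl, Angptl4, Gpihbp1, Cd36, Fabp3, Fabp4, Fabp5, Slc27a1, Slc27a2 and Acsl1. Of these, 9 of the 18782 genes with a probe set of their own in the platform annotation were measured, and Acsl1 was not analysed here. Where a gene had several probe sets, the brightest on average was used.

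The RictoraP2KO group comprised 4 samples and the control group, Rictorfl/fl, another 4. Rictor belongs to mTOR complex 2, through which insulin signals to Akt. In the RictoraP2KO mice Cre is driven by the aP2 promoter, and aP2 is an older name of the member Fabp4. This promoter is not restricted to fat cells; per the series title the gene was deleted in brain and fat. All mice were males of 17 to 22 weeks, starved overnight and killed at 9 am, and the labels do not say whether the controls carried Cre. The purpose, per that title, concerned clock gene expression and blood pressure.

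Fat cells take up fatty acids that lipoprotein lipase releases from circulating triglyceride at the capillary wall. The lipase is made by the fat cell, carried to the capillary lumen by GPIHBP1 of endothelial cells and inactivated by ANGPTL4. CD36 and transport proteins of the Slc27a family assist entry into the cell, binding proteins of the FABP family carry the acids through the cytosol, and acyl-CoA synthetases such as ACSL1 activate them. Brown fat, which burns fatty acids for heat, depends heavily on this supply, and thoracic perivascular fat of mice resembles it.

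Promoter sequences are shown for 3 members, the one with the lowest difference (Fabp3), the one with an outlying array (Slc27a2) and Cd36, which PPAR factors are known to regulate. They are the 250 bases before the start site in RefSeq, assembly GRCm38.p6, on the strand of the gene. RefSeq sequences were at hand for 5 of the 10 members in 8 windows; those of Lpl, Angptl4, Gpihbp1, Fabp4 and Fabp5 are not shown. Capitals mark the letters AGGTCA on either strand, the single binding motif of many nuclear receptors.
Fabp3, chr4:130308488-130308737, plus strand: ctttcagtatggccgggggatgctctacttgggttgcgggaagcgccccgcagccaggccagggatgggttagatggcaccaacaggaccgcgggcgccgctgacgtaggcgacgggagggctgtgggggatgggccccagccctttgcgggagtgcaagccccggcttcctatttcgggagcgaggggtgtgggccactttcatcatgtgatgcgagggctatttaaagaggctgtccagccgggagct
Slc27a2, chr2:126552774-126553023, plus strand: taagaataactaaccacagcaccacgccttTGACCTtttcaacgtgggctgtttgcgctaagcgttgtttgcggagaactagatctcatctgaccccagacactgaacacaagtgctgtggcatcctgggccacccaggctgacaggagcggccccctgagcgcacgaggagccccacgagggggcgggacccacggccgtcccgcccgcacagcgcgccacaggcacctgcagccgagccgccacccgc
Cd36, chr5:17835897-17836146, minus strand: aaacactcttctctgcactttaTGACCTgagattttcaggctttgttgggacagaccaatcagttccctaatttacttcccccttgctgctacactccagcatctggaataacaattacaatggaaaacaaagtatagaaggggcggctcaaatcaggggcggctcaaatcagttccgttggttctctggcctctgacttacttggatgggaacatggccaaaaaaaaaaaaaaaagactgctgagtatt
The direct repeat that PPAR and RXR bind as a pair, AGGTCA followed by itself after 1 base of any kind, was searched on both strands and was in none of the 8 windows; it lay in 0.0335% of 32851 such windows over all genes. The single motif AGGTCA, which the repeat contains, was found in Slc27a2 and Cd36, and in 14% of all windows. The clock motif CACGTG was found in 1 of the 3 Slc27a1 windows and in 6.02% of all windows, and TATAAA on the coding strand was in none of the 8 windows and in 7.59% of all. These are matches of letters only, and none of these windows was tested for binding.

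None of the 9 measured members passed the test between the groups. Values are log2 RMA signals, where 1 unit is a doubling, and differences are RictoraP2KO minus control with their standard error (SE). Each was tested with limma across all 28371 probe sets at a Benjamini-Hochberg adjusted p under 0.05. By that rule 0 of 9 members were called, against 0.00352% of all probe sets, which is 1 probe set. In 6 members the mean was above and in 3 below that of the controls, and the median difference was 0.05, against -0.00325 over all probe sets. The median size of the difference, whatever its sign, was 0.11 over the members, 0.07 over all probe sets and 0.09 over those brighter than the array median of 3.76. In 0 of 9 members did the values of the groups stand apart without overlap, against 4.25% of all probe sets. At an unadjusted p under 0.05 there was 1 member, Fabp5, against 7.27% of all probe sets. The labels name separate samples without stating that each is a separate animal, so the p-values speak only of spread among samples, which may be technical, and the number of arrays limits the precision.

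**Figure D1:**
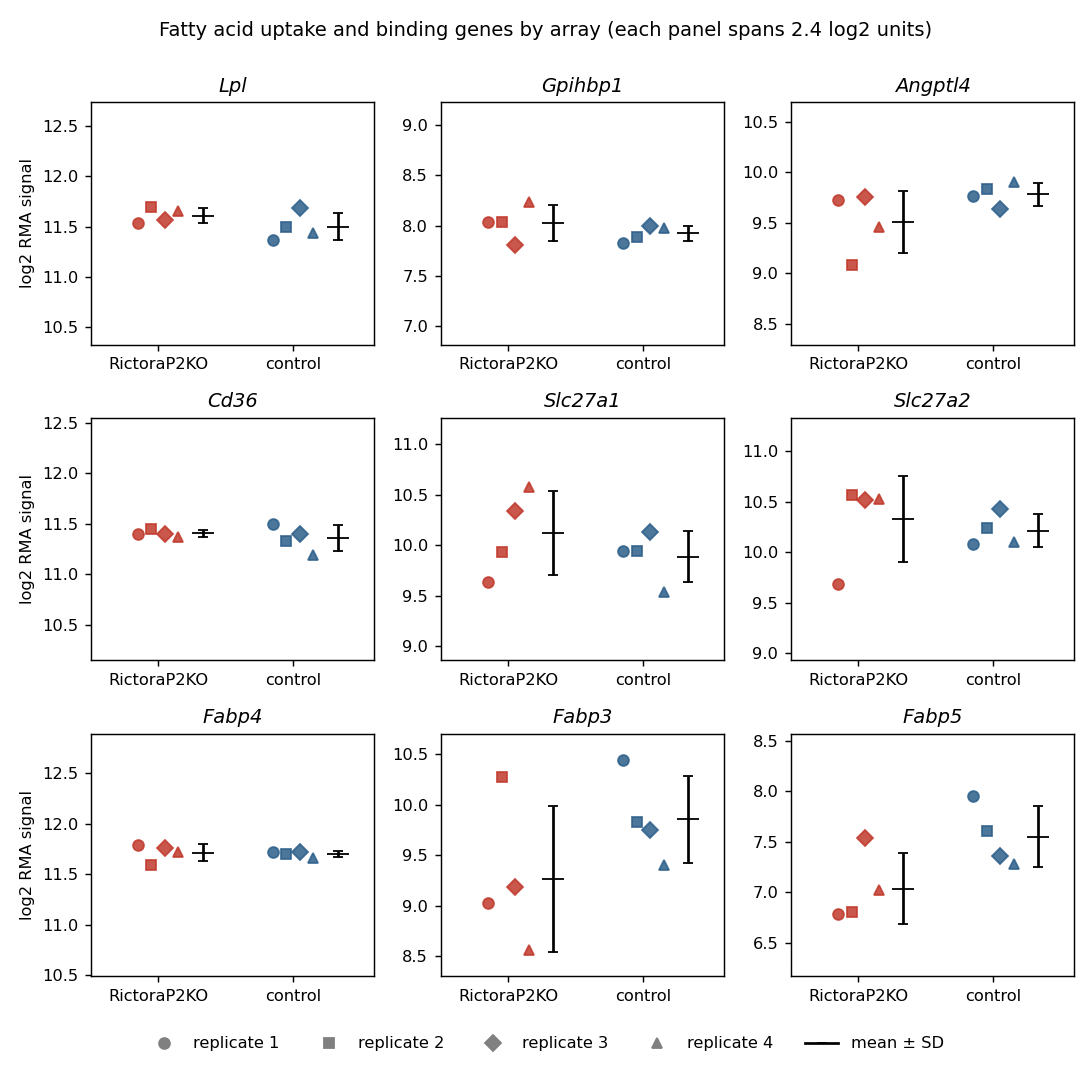
Log2 RMA signal of the 9 measured members in the 4 RictoraP2KO arrays (red, left) and the 4 control arrays (blue, right); each symbol is 1 array, its shape the replicate number, and the black bar the mean ± SD. Every panel spans the same height, so the wide scatter of Fabp3, between 8.56 and 10.44, can be set beside the narrow one of Fabp4, between 11.59 and 11.79, and in all 9 panels the groups overlap.

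The tissue carried the identity of brown-like fat in all arrays. Ucp1, the uncoupling protein of brown fat, stood at 11.7 ± 0.26 in RictoraP2KO and 11.7 ± 0.26 in control arrays (SD, n = 4 each), and the fat cell hormone gene Adipoq at 10.96 ± 0.11 and 10.94 ± 0.10 (SD, n = 4 each). Zic1, a marker of interscapular brown fat, was below the array median in both groups, at 1.83 and 1.76. The Rictor signal averaged 6.68 in RictoraP2KO and 6.54 in control arrays, a difference of 0.145 (SE 0.063; limma adjusted p = 0.685) that runs against the label, and directions here rest on the labels. Where its probes lie relative to the deleted part was not examined. Single arrays also carried signal of other tissues, given here as a mean deviation over a marker list from its mean over the 8 arrays. Skeletal muscle markers, of which 5 of 13 were brighter than the array median, reached 1.22 in RictoraP2KO replicate 2, while no other array was above -0.06. Not every marker followed. Myl1, the brightest of the list, was lowest in that array, at 7.75 against up to 8.56 elsewhere, and Myh2, at 2.45, lay within the range of the other arrays. B cell and lymph node markers, of which 4 of 9 were brighter than the array median, were also highest in RictoraP2KO replicate 2, at 0.84 (at most 0.11 elsewhere). Lung epithelial markers, of which 2 of 10 were brighter than the array median on average, stood at 2.30 in control replicate 2 (at most -0.24 elsewhere). Sftpc reached 9.20 in that array, while Cyp2f2 did not follow, at 7.03 there and 8.37 in control replicate 4. Neuron markers, of which 1 of 11 was brighter than the array median, stood at 1.37 in control replicate 3 (at most -0.08 elsewhere). Cardiac muscle markers, 12 measured and 8 brighter than the array median, ran from -1.02 in replicate 1 to 1.22 in replicate 2 of the RictoraP2KO arrays and from -0.67 to 0.57 in the control arrays. Myl2, the ventricular light chain, lay below the array median in both groups, at 2.60 and 2.56.

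Neither the lipase nor its capillary partner passed the test. Lpl, the lipase, stood at 11.53, 11.69, 11.56 and 11.65 in RictoraP2KO replicates 1 to 4 and at 11.37, 11.50, 11.68 and 11.44 in control replicates 1 to 4. Control replicate 3 lay among the RictoraP2KO arrays, which otherwise were higher than the controls. The difference was 0.11 (SE 0.078; limma adjusted p = 0.794), with a 95% interval from -0.07 to 0.29. Without control replicate 1 it was 0.07 and without control replicate 3, where the groups stood apart as for 7.67% of all probe sets, it was 0.17. Here and for the members below, the arrays whose omission is named were picked after the values were seen. Each share is for leaving out that same array from all probe sets. The share that stands apart after leaving out any 1 of the 8 arrays, whichever separates the groups, is larger than each of these and was not computed. For an array picked after the values were seen, the shares given are therefore too low a background, and they do not show a member to be unusual. Gpihbp1, which moves the lipase across the endothelium, stood at 8.03, 8.04, 7.80 and 8.24 in the RictoraP2KO arrays and at 7.83, 7.89, 7.99 and 7.98 in the controls. RictoraP2KO replicate 3 was the lowest of all arrays and replicate 4 the highest, which left a difference of 0.11 (SE 0.093; limma adjusted p = 0.831). Without RictoraP2KO replicate 3 the Gpihbp1 values of the groups stood apart, as did those of 8.85% of all probe sets, and its difference was 0.18; without RictoraP2KO replicate 4 it was 0.04.

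Angptl4, the inhibitor of the lipase that fasting induces, stood at 9.72, 9.08, 9.75 and 9.46 in the RictoraP2KO arrays and at 9.76, 9.83, 9.63 and 9.90 in the controls. The lowest value belonged to RictoraP2KO replicate 2, the array with the highest means of the skeletal muscle, cardiac muscle, and B cell and lymph node markers. Replicate 4 was the next lowest. The difference was -0.28 (SE 0.144; limma adjusted p = 0.736; interval -0.60 to 0.05). Without RictoraP2KO replicate 3 it was -0.36, and without control replicate 3 the groups stood apart, at means of 9.50 and 9.83, as for 7.67% of all probe sets. Without RictoraP2KO replicate 2 the difference was -0.13, and the part of the muscle or lymph node signal in this was not tested.

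Of the other genes of the lipoprotein lipase system, 16 of 18 listed were measured, 0 passed in either direction, and 8 were above and 8 below 0. Angptl8, which is induced by insulin and feeding, had the smallest unadjusted p. It stood at 5.66, 6.31, 6.84 and 5.82 in the RictoraP2KO arrays and at 7.06, 6.54, 6.72 and 6.25 in the controls, a difference of -0.49 (SE 0.263; limma adjusted p = 0.742). The groups overlapped in RictoraP2KO replicates 2 and 3. Lmf1, a chaperone that the lipase needs to mature, differed by -0.16 (SE 0.108) and overlapped too. The range over the list ran from -0.49 for Angptl8 to 0.47 for Apoc2, the cofactor of the lipase, which varied among arrays (difference 0.47, SE 0.325).

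At the cell surface, Cd36, the scavenger receptor that helps fatty acids enter, was the steadiest of the uptake genes in the RictoraP2KO arrays. It stood at 11.40, 11.45, 11.40 and 11.37 there and at 11.50, 11.33, 11.40 and 11.19 in the controls. The RictoraP2KO values lay within the range of the controls, and the difference was 0.05 (SE 0.073; limma adjusted p = 0.900; interval -0.11 to 0.21). Leaving out control replicate 4, the lowest array, turned it to -0.005. Slc27a1, a transport protein with acyl-CoA synthetase activity that insulin moves to the fat cell surface, stood at 9.64, 9.93, 10.34 and 10.58 in the RictoraP2KO arrays and at 9.94, 9.94, 10.13 and 9.54 in the controls. RictoraP2KO replicates 3 and 4 were above every control and replicate 1 was below 3 of the 4. The difference was 0.23 (SE 0.206; limma adjusted p = 0.834; interval -0.23 to 0.70), and leaving out RictoraP2KO replicate 4 gave 0.08, leaving out RictoraP2KO replicate 1 gave 0.40. With RictoraP2KO replicates 1 and 2 both left out, chosen after their cardiac marker values were seen, it was 0.57 (limma adjusted p = 0.858) and the groups stood apart, as for 14.8% of all probe sets.

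Slc27a2, a very long-chain acyl-CoA synthetase and transporter known best from liver and kidney, stood at 9.68, 10.57, 10.52 and 10.53 in the RictoraP2KO arrays and at 10.08, 10.24, 10.43 and 10.10 in the controls. RictoraP2KO replicates 2 to 4 were above all controls and replicate 1 below all of them. Their means differed by 0.11 (SE 0.194; limma adjusted p = 0.920), or by 0.33 without RictoraP2KO replicate 1, where the groups did not overlap, as was so for 7.73% of all probe sets. That difference did not pass either (limma adjusted p = 0.621). Without RictoraP2KO replicate 2 the difference was 0.03. Without both, a choice made after the data were seen, it was 0.31. The groups then stood apart, as for 14.8% of all probe sets. With replicate 1 out they already stood apart, and leaving out a further array could not make them overlap. Replicate 1 had the lowest mean of the brown fat markers, at -0.36, against -0.03 to 0.13 in the other RictoraP2KO arrays and -0.15 to 0.19 in the controls. Most of that came from Elovl3, an elongase, which lay 2.76 below its mean there; without it the list mean was -0.14, and 4 of the 12 markers, Ebf2 among them, were above their means. The adipocyte list stood at 0.20 in that array through leptin (Lep) alone, which lay 2.31 above its mean, and at -0.01 without it. The part of this in the low Slc27a2 value was not tested. In bulk tissue, fewer cells of a type and less RNA per cell cannot be told apart.

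Of the other genes of fatty acid transport and activation, 17 of 18 listed were measured and 0 passed in either direction. Of these 17, 9 were above and 8 below 0, within a range from -0.21 for Cav2 to 0.19 for Zdhhc5. The smallest unadjusted p-values belonged to Slc27a3 (difference -0.15, SE 0.072) and the acyl-CoA synthetase gene Acsbg1 (0.18, SE 0.088), both dimmer than the array median. Among the synthetases of the Acsl family, Acsl5 differed by -0.19 (SE 0.225) and Acsl4 by 0.0015 (SE 0.123).

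Among the binding proteins, Fabp4 hardly varied while Fabp3 and Fabp5 had the lowest differences of the set. Fabp4, the main fatty acid binding protein of fat cells and the gene whose promoter drives Cre, stood at 11.79, 11.59, 11.76 and 11.72 in the RictoraP2KO arrays and at 11.72, 11.70, 11.72 and 11.66 in the controls. RictoraP2KO arrays held both the highest and the lowest value. The difference was 0.015 (SE 0.061; limma adjusted p = 0.973), with an interval from -0.12 to 0.15, or 0.92 to 1.11 times the control level, and leaving out RictoraP2KO replicate 1 turned it to -0.01. Its pooled SD within groups was 0.07, and those of Lpl and Cd36, the other members with a mean above 11, were 0.11 and 0.10. The median SD of the 192 probe sets with a mean above 11 was 0.05, against 0.15 over those brighter than the array median. The highest signal of the table was 12.52, and saturation of probes was not tested.

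Fabp3, the heart-type binding protein that oxidative muscle and brown fat also make, varied most. It stood at 9.03, 10.27, 9.18 and 8.56 in the RictoraP2KO arrays and at 10.44, 9.83, 9.75 and 9.41 in the controls. RictoraP2KO replicates 1, 3 and 4 were below every control, while replicate 2 was above 3 of the 4. The difference was -0.60 (SE 0.350; limma adjusted p = 0.766; interval -1.39 to 0.20), or 0.66 times the control level with an interval from 0.38 to 1.15; an exact two-sided permutation test over arrays gave p = 0.229. Over all 8 arrays Fabp3 ranged over 1.88 log2 units, more than 98.3% of the probe sets brighter than the array median.

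Replicate 2, the RictoraP2KO array with high Fabp3, was also the one with cardiac markers at 1.22, skeletal muscle markers at 1.22 and B cell and lymph node markers at 0.84. Without it the difference in Fabp3 was -0.93, from means of 8.92 in RictoraP2KO and 9.86 in control arrays. The groups then did not overlap, as for 7% of all probe sets, and the adjusted p was still 0.801 (limma). Without the 3 arrays highest in muscle, lung or neuron markers, which leaves 3 against 2, the difference was -1.0 (limma adjusted p = 0.969). With those 3 left out Lpl differed by 0.175, Angptl4 by -0.18 and Slc27a1 by 0.45, and none of the 9 members passed. The arrays kept were not free of cardiac signal. The cardiac marker Actc1 stood at 6.67, 7.69 and 8.34 in RictoraP2KO replicates 1, 3 and 4 and at 8.383 and 8.465 in control replicates 1 and 4. The lowest Fabp3 value, in RictoraP2KO replicate 4, came with cardiac markers at -0.01 and the highest, in control replicate 1, with 0.29. Without RictoraP2KO replicate 4 the difference was -0.36, and without control replicate 1 it was -0.40.

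Fabp5, the epidermal-type binding protein that fat cells and macrophages share, stood at 6.78, 6.81, 7.54 and 7.02 in the RictoraP2KO arrays and at 7.95, 7.60, 7.36 and 7.28 in the controls. RictoraP2KO replicates 1, 2 and 4 lay below all controls and replicate 3 above 2 of them. The difference was -0.51 (SE 0.196; limma adjusted p = 0.668; interval -0.96 to -0.07), or 0.70 times the control level, with an exact two-sided permutation p = 0.0857. Without RictoraP2KO replicate 3 the groups stood apart, as for 8.85% of all probe sets, and the difference was -0.68 (limma adjusted p = 0.400). Without RictoraP2KO replicates 1 and 2, it was -0.27 (limma adjusted p = 0.932). Macrophage markers, 12 measured, had higher means in RictoraP2KO replicates 1, 2 and 4, at 0.37, 0.24 and 0.20, than in replicate 3, at -0.23, and ran from -0.28 to 0.01 in the controls. The RictoraP2KO arrays with low Fabp5 were those with the higher macrophage signal, and the part of this in the result was not tested.

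Both genes have more than 1 probe set. The second Fabp3 probe set differed by -0.64 and followed the first across arrays with r = 0.998. RefSeq lists a Fabp3 pseudogene, Fabp3-ps1, so which locus each set reads cannot be told apart here. Of the 3 Fabp5 probe sets, the second differed by -0.53 (r = 0.998 with the first), and the third, dimmer than the array median at 2.67 in RictoraP2KO and 2.83 in control arrays, by -0.17 (r = 0.826). RefSeq likewise lists a Fabp5 pseudogene, and the same limit holds.

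**Figure D2:**
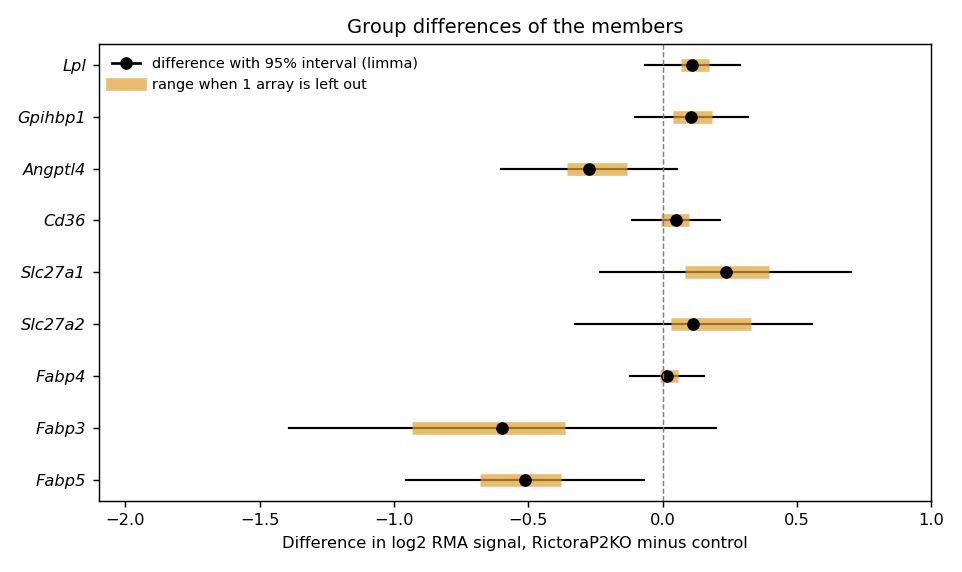
Difference in log2 RMA signal, RictoraP2KO minus control, of the 9 measured members (black point) with the 95% interval from limma (black line, n = 4 against 4) and the range of the difference when 1 array is left out (orange bar). Fabp3 at -0.60 and Fabp5 at -0.51 lie farthest from 0, and the interval of Fabp5 alone, unadjusted for the number of probe sets, leaves out 0.

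Of the other fatty acid binding proteins, 12 of 13 listed were measured, 0 passed in either direction, and 5 were above and 7 below 0. Only 4 of the 12 were brighter than the array median, among them Dbi, the acyl-CoA binding protein (difference -0.07, SE 0.087). The smallest unadjusted p-values belonged to Fabp2, the intestinal form (-0.14, SE 0.071), and Crabp2, which binds retinoic acid (-0.10, SE 0.073), both dimmer than the array median in both groups. The Fabp paralogs of liver, intestine and myelin (Fabp1, Fabp2 and Pmp2) were all below it.

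Of the genes listed as regulators, 15 of 15 were measured, with 0 passing in either direction, 8 above and 7 below 0 and a median of 0.08. The list is a choice and not every regulator of the members. Nrip1, a corepressor that restrains oxidative genes in fat, stood at 6.24, 6.29, 6.30 and 6.55 in the RictoraP2KO arrays and at 5.85, 5.84, 5.94 and 5.65 in the controls. It was the 1 gene of the 60 in the other pathway lists whose groups did not overlap, against 4.25% of all probe sets. The difference was 0.53 (SE 0.090; limma adjusted p = 0.4997). Srebf1, the driver of fatty acid synthesis, differed by 0.30 (SE 0.115; limma adjusted p = 0.668) with groups that overlapped. Ppara and Pparg, the nuclear receptors that bind fatty acids and switch on Cd36, Fabp3, Lpl and Angptl4, differed by -0.27 (SE 0.148) and -0.21 (SE 0.114). Over the 4 lists of other pathway genes, 60 in all, 30 were above and 30 below 0.

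**Figure D3:**
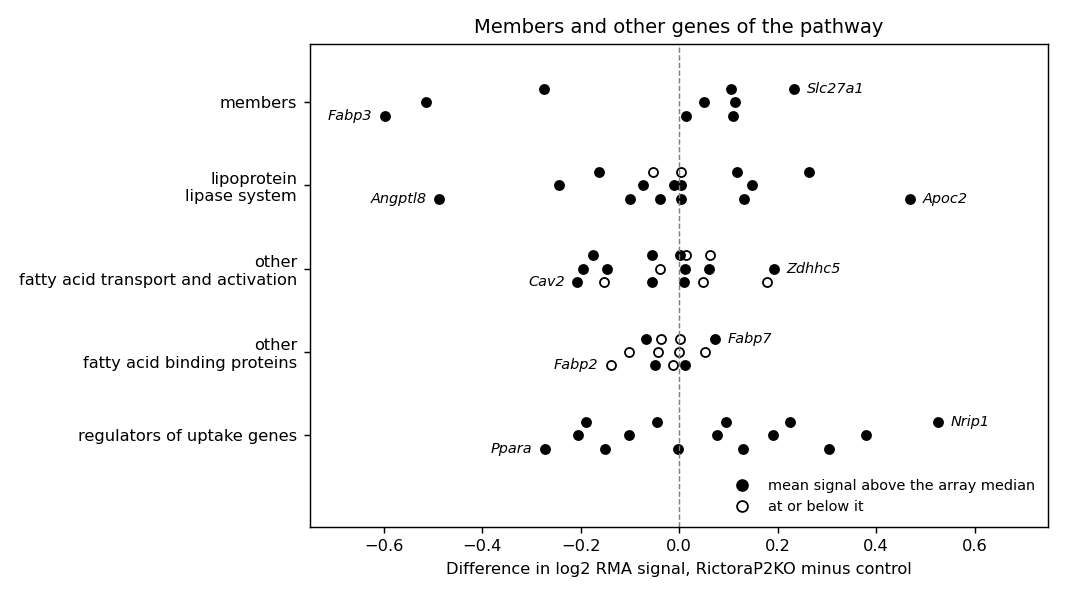
Difference in log2 RMA signal, RictoraP2KO minus control, of each measured gene of 5 lists, the 9 members in the top row; filled points are genes with a mean signal above the array median and open points those at or below it, and vertical offsets only keep points apart. The lowest and the highest gene of each list are named, and Fabp3 at -0.60 and Nrip1 at 0.53 lie farthest out on either side.

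The members did not move as one group across the arrays. Of their 36 pairs, 20 had a positive and 16 a negative Pearson r over the 8 arrays, with a median of 0.07. The highest was that of the transport genes Slc27a1 and Slc27a2 (r = 0.734, rho = 0.548, and r = 0.791 without 2 arrays) and the lowest that of Gpihbp1 and Fabp5 (r = -0.749, rho = -0.810, and r = -0.955). Lpl and its inhibitor Angptl4 ran opposite (r = -0.740, rho = -0.881), and r was -0.878 without the 2 arrays farthest from the median of Lpl and -0.637 with the group means taken out. The 2 binding proteins Fabp3 and Fabp5 were not tied closely (r = 0.432, rho = 0.524, and r = -0.075 without the 2 arrays farthest from the median of Fabp3). In each of these pairs the 2 arrays left out were those farthest from the median of the gene named first. These are descriptions over 8 arrays that share the group difference, the normalisation and the uneven tissue signal.

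Relations to marker lists and regulators were described over the same 8 arrays. Each of the 9 measured members was set against the 10 marker lists and against Ucp1, Ppargc1a, Ppara, Pparg and Mfsd2a. The pairs named below were picked from these after the values were seen, so their r values are large by selection. Other pairs were of like size, such as Slc27a1 and Pparg (r = -0.843) and Cd36 and Ucp1 (r = 0.751). Gpihbp1 followed the endothelial markers (r = 0.818, rho = 0.952, and r = 0.865 without the 2 arrays farthest from its median), and Fabp5 ran against them (r = -0.861, rho = -0.857, and r = -0.909 without 2 arrays). Those 12 markers ran from -0.13 to 0.15 in the RictoraP2KO arrays and from -0.10 to 0.0032 in the controls. Fabp3 followed Ppargc1a, the coactivator of oxidative genes (r = 0.764, rho = 0.595, and r = 0.804 without 2 arrays), and the cardiac list (r = 0.587, rho = 0.690, and r = 0.834 without 2 arrays). The 2 arrays left out for Fabp3 were RictoraP2KO replicate 4 and control replicate 1. RictoraP2KO replicate 2, the array highest in both muscle lists, stayed in and was then the highest in Fabp3, Ppargc1a and the cardiac list. These values therefore do not show whether either relation holds without that array. Ppargc1a itself stood at 8.59, 9.82, 8.42 and 8.78 in the RictoraP2KO arrays and at 9.83, 8.71, 8.74 and 8.93 in the controls, with the highest values in the 2 arrays that were highest in Fabp3. Slc27a2 followed Ucp1 (r = 0.701, rho = 0.683, and r = 0.868 without 2 arrays) and ran against Ppara (r = -0.791, rho = -0.929, and r = -0.858). Lpl ran against Ppara too (r = -0.886, rho = -0.857, and r = -0.780). Fabp4 ran against the cardiac list (r = -0.858, rho = -0.830) over a range of only 0.20 log2 units, and r was -0.450 without 2 arrays. Against the skeletal muscle list it was r = -0.839 (rho = -0.976), and r = -0.945 without 2 arrays. The 2 arrays left out for Fabp4 were RictoraP2KO replicates 1 and 2, so the array highest in the skeletal muscle list was gone. In the others that list ran only from -0.23 to -0.06 and Fabp4 from 11.66 to 11.76. The last r thus rests on very small differences and does not speak of muscle signal.

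**Figure D4:**
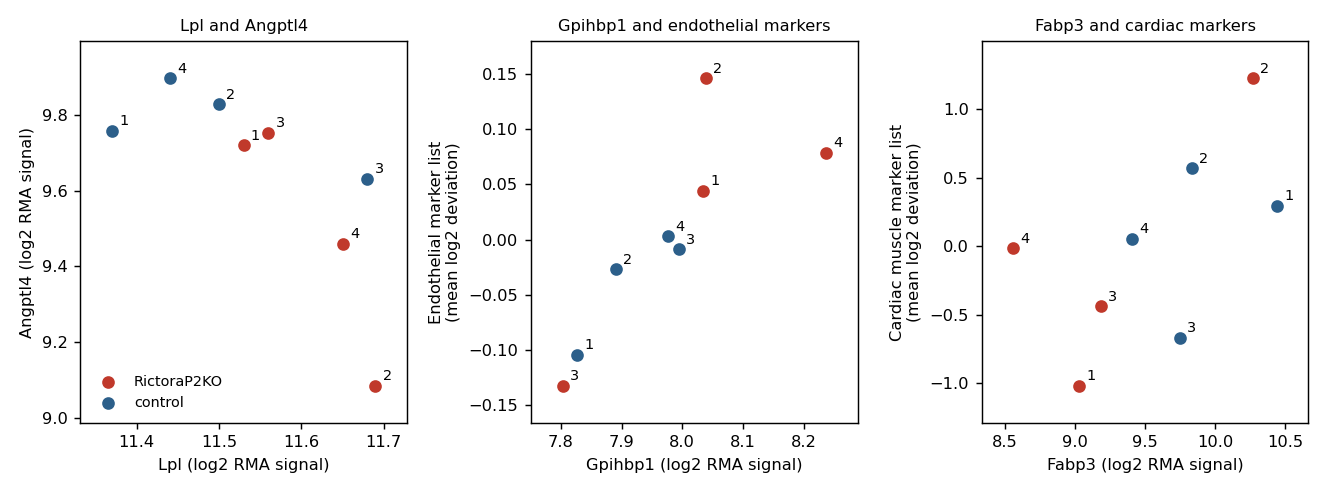
Each point is 1 array, red for RictoraP2KO and blue for control, with its replicate number; the left panel sets Angptl4 against Lpl (both log2 RMA signal), the middle one the mean deviation of the endothelial markers against Gpihbp1, and the right one that of the cardiac muscle markers against Fabp3. Angptl4 was lower where Lpl was higher (r = -0.740), the endothelial markers were higher where Gpihbp1 was (r = 0.818), and Fabp3 was highest in control replicate 1 and lowest in RictoraP2KO replicate 4, neither of which was at an end of the cardiac scale.

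The genes most like each member were sought among 10407 genes brighter than the array median, by Pearson r over the 8 arrays, and the 3 highest were taken. Being the highest of so many, these r values are large by selection. For Angptl4 they were Pnpla3, a lipid droplet protein (r = 0.990, rho = 0.994), Zfhx3 (r = 0.985) and Pm20d1, which makes N-acyl amino acids (r = 0.981). Pnpla3 differed by -0.91 (SE 0.426) and Pm20d1 by -0.59 (SE 0.204) between the groups, neither of which passed. For Lpl they were Sar1a, a GTPase of vesicle export from the endoplasmic reticulum (r = 0.967), Hnrnpl (r = 0.963) and the insulin receptor gene Insr (r = 0.953). For Cd36 they were Elk1, Sfmbt1 and Csnk1g3, with r from 0.979 to 0.985.

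For Fabp3 the 3 were Zfp697 (r = 0.951), Trim33 (r = 0.949) and Rtn2 (r = 0.940), and for Fabp5 Slc25a48, a mitochondrial carrier (r = 0.972), Suds3 (r = 0.966) and the acyl-CoA synthetase gene Acsf3 (r = 0.964). Fabp4 was most like Ids, H4c8 and Iffo2 (r from 0.939 to 0.955) and Gpihbp1 most like Ctla2a, Slc25a25 and Phc3 (r from 0.920 to 0.951). Slc27a1 was most like the gluconeogenic enzyme gene Fbp1 (r = 0.974), Cyrib and Ttc30b, and Slc27a2 most like Tmem41a (r = 0.960), As3mt and Pdp2. Adjusted p-values between the groups for these genes ran from 0.655 to 0.999 (limma).

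Spread differed between the groups in 1 direction more often than the other. The SD was larger in the RictoraP2KO than in the control arrays for 7 of 9 members, against 52.7% of all probe sets, and smaller for Lpl and Cd36. It was 3.12 times that of the controls for Fabp4, 2.73 times for Angptl4 and 2.65 times for Slc27a2, and 0.25 times for Cd36. Single arrays weigh heavily in such ratios. Slc27a2 was at 9.684 in RictoraP2KO replicate 1 and Angptl4 at 9.084 in RictoraP2KO replicate 2, each the lowest of its group, and the control SD of Fabp4 was only 0.028. The difference in spread was not tested.

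**Figure D5:**
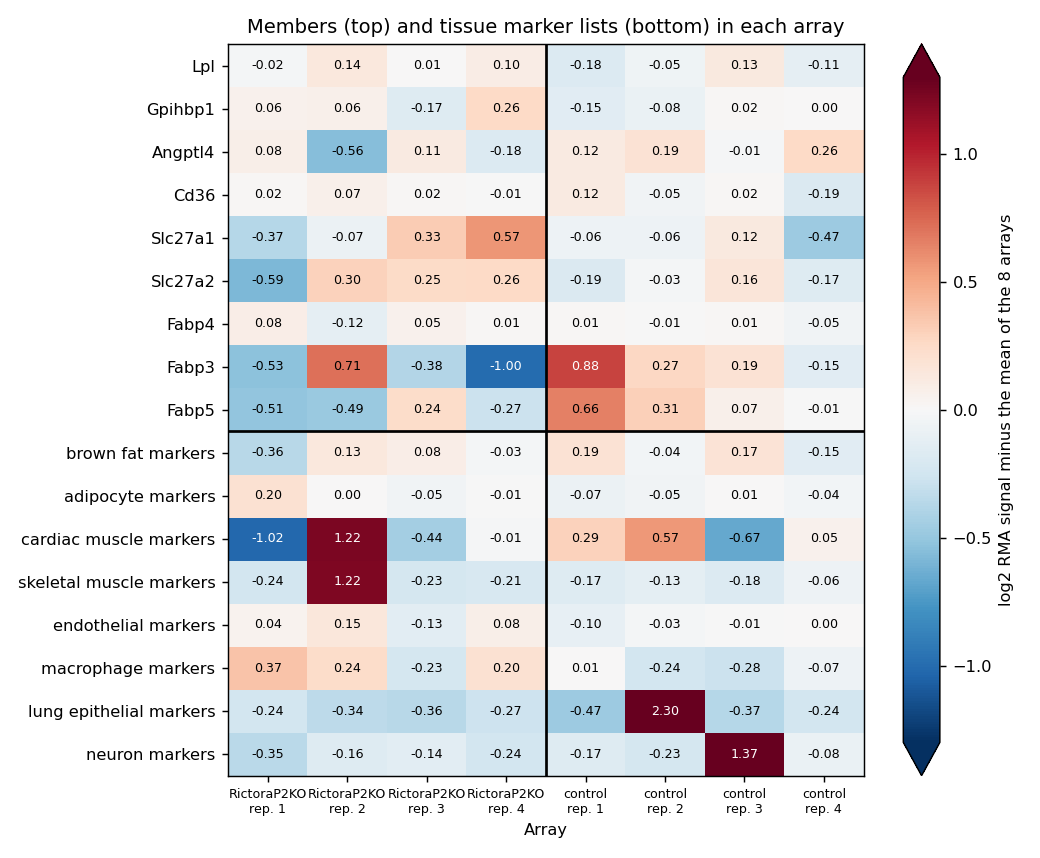
Each cell is the log2 RMA signal of a member (top) or the mean over a marker list (bottom) in 1 array, minus its mean over the 8 arrays, with RictoraP2KO replicates 1 to 4 left of the line and control replicates 1 to 4 right of it; colours end at 1.3 either way and the printed number gives the value. Fabp3 stood at 0.71 in RictoraP2KO replicate 2 and 0.88 in control replicate 1, Slc27a2 was lowest in RictoraP2KO replicate 1, and the muscle, lung and neuron lists were high in single arrays.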

How the data were processed

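Total RNA of 8 samples, 4 labelled RictoraP2KO and 4 labelled control, was hybridised to 1 array each after 5 µg entered the labelling, per the labels' protocols. The authors deposited log2 values, 1 for each of 28371 probe sets and each array, and the submitters' processing notes name RMA and Affymetrix Power Tools 1.10.2. The values ran from 1.045 to 12.52, with a median of 3.76 in every array, so a change in total RNA output would not be seen. No genome build is stated for them.

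The platform annotation gave 21158 probe sets exactly 1 gene symbol, and each gene was represented by its brightest probe set. Tests used lmFit and eBayes of limma 3.58.1 (R 4.3.3) on all probe sets, without covariate or filter, two-sided, with Benjamini-Hochberg adjustment, and the script was tested on simulated data. For single members an exact permutation test, two-sided, ran over all 70 label assignments, and its smallest possible p is 0.0286. Intervals are at the 95% level. The 10 members, the 4 lists of other pathway genes, the 10 marker lists and the alternatives were chosen with earlier results of these data known. Genes were named by rule: all members, the 2 genes of smallest unadjusted p in each pathway list, and the 3 genes most like each member. Others, such as Ppara, Apoc2, Acsl5 and Dbi, and the genes at either end of a list, were named after their values were seen. Mesothelial markers (6 measured) ran from -0.35 to 0.29 in RictoraP2KO and from -0.29 to 0.52 in control arrays, and B cell and lymph node markers (9 measured) from -0.31 to 0.84 and from -0.39 to 0.10.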

Additional observations from a re-analysis of the deposited data

Results flagged for a closer look

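Slc27a2 in RictoraP2KO replicate 1, at 9.684, stood far below the other 3 arrays of its group, which lay between 10.52 and 10.57. The gap was larger than Dixon's critical value for 4 samples, 0.829 of the range of the group. Each of the 9 members was examined in both groups, 18 sets of 4 values in all, of which chance flags about 1 in 20. No other set was singled out.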

How the results depend on the processing

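In none of the alternatives run did a member pass an adjusted p under 0.05, and the same held for the 60 other pathway genes. Median centring, the filter on dim probe sets, the other variance settings, the replicate block and the restriction to probe sets with 1 symbol cannot move a difference here and bear only on the p-values. Among the rest, 2 differences changed sign: Cd36 turned to -0.005 without control replicate 4 and Fabp4 to -0.01 without RictoraP2KO replicate 1. Leaving out 1 array at a time gave 0 to 5 called probe sets over the whole table, and differences from -0.93 to -0.36 for Fabp3, -0.68 to -0.38 for Fabp5, -0.36 to -0.13 for Angptl4, 0.07 to 0.17 for Lpl, 0.04 to 0.18 for Gpihbp1, -0.005 to 0.10 for Cd36, -0.01 to 0.057 for Fabp4, 0.08 to 0.40 for Slc27a1 and 0.03 to 0.33 for Slc27a2. No probe set passed (0) without dim probe sets, in the unmoderated test, or without the 3 arrays highest in muscle, lung or neuron markers. The same held without RictoraP2KO replicates 1 and 2, an alternative chosen after seeing the data. With those 2 arrays left out, the arrays lowest and highest in cardiac markers, Fabp3 differed by -0.99, Fabp5 by -0.27, Slc27a1 by 0.57 and Slc27a2 by 0.31. At an unadjusted p under 0.05 the counts were 1 member, 2 other pathway genes and 2062 probe sets, and 55 probe sets differed by at least 1.5-fold with unadjusted p under 0.01. With the replicate number as a block, 0 probe sets passed; same-numbered arrays correlated by -0.15 to 0.09 in their deviations and none best with its own number, so the numbers are names only. The mean of all probe sets of a gene gave -0.40 for Fabp5. The number of arrays and, for Lpl, Cd36 and Fabp4, the small spread of very bright probe sets limit what could be seen.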

Other observations

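Mfsd2a, a transporter of lysophosphatidylcholine that was listed with the transport genes, was chosen after its values were seen. It stood at 5.32, 9.04, 5.88 and 9.04 in RictoraP2KO replicates 1 to 4 and at 7.41, 6.54, 8.64 and 6.65 in control replicates 1 to 4. The 8 values ranged over 3.73 log2 units, with a difference between the groups of 0.01 (SE 0.917; limma adjusted p = 0.999). Over the 8 arrays Mfsd2a was high where Slc27a2 was high (r = 0.677, rho = 0.667) and Angptl4 low (r = -0.720, rho = -0.595); without the 2 arrays farthest from the median of Slc27a2 or Angptl4 these were r = 0.531 and r = -0.392. Elovl3, an elongase of brown fat that was seen in the same way, was at 6.84 in RictoraP2KO replicate 1, while the other 7 arrays ran from 8.29 to 10.75.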
